A study of Mus musculus with 8 samples.

Results

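Growth factors of the testis and the receptors that read them formed the gene set described here. Members were the autosomal genes whose symbol placed them among the WNT ligands and Frizzled receptors, the FGF, BMP, GDF, TGF-beta, inhibin and SMAD genes, the NOTCH receptors and their Delta and Jagged ligands, GDNF and the GFRA coreceptors, KIT and its ligand, CSF1, and the IGF, PDGF and VEGF genes. Of 9224 genes with promoter methylation values, 90 were members, and they held 3067 of 203645 cytosines. The X-linked genes Fgf13 and Fgf16 matched by symbol and were left out, and Ret, Csf1, Fgf2, Fgf9, Fgfr1, Fgfr2, Fgfr4, Bmp4, Wnt10a, Notch1, Igf2 and Igf2r had no cytosine in the table used here. The rule matched symbols and so also took in Fzd10os, a transcript opposite Fzd10, and Fgfr1op, Igf2bp2, Igf2bp3, Bmp2k, Tgfbrap1 and the protease gene Bmp1, which are not ligands or receptors of these pathways.

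Spermatogonial stem cells sit in a niche in which Sertoli cells secrete GDNF, and GDNF acts through the coreceptor GFRA1 and the kinase RET to keep them self-renewing. FGF ligands act beside GDNF, while KIT, the receptor for the Sertoli cell product KITL, marks spermatogonia that have begun to differentiate, and WNT, NOTCH, BMP and activin signals pass between germ cells and their neighbors. Methylation of CpG islands at promoters is a mark of stable silencing, and most island promoters are free of it in most cells.

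GS cells, a culture of male germ cells that can restore spermatogenesis after transplantation, were compared as 8 lines of wild-type B6 background, with 1 library each. Lines 29, 37, 44 and 45 came from offspring of natural mating (control-F1) and lines 11, 17, 20 and 21 from offspring produced by intracytoplasmic sperm injection (ICSI-F1) with wild-type sperm. The study calls this sperm wild-type and also states that it came from green mice, which express an Egfp transgene. Whether the lines carry the transgene is not stated in the paper. All lines were started from testis cells enriched with an antibody against CD9 and were grown in the same medium, which supplied FGF2 and GDNF, so ligands of the FGF and GDNF pathways were added to both groups. The line numbers are among those that the study's supplement gives to single F1 mice, but whether these mice shared a litter is not stated in the sources used here, and p-values measure the spread between these lines. GEO's labels also describe lines 29, 37, 11 and 17 (label set 1) and lines 44, 45, 20 and 21 (label set 2) differently, and each set holds 2 control-F1 and 2 ICSI-F1 lines. Promoters of 10 germ cell genes with cytosines outside CCGG all averaged under 5% methylation, with a median of 2.45%. Of 5 Sertoli cell genes, Sox9, Dhh and Cldn11 were at 2.39% to 5.27%, Trf at 35.1% and Gata4, with 2 cytosines, at 95.2%. Of 3 fibroblast genes, Twist1 was at 1.57%, Col1a1 at 6.41% and Col1a2 at 78.2%, both collagen genes by 1 cytosine. Low levels were thus seen in genes of all 3 lists, and methylation does not measure expression.

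In reduced representation bisulfite sequencing (RRBS), genomic DNA is digested with MspI at CCGG, and bisulfite turns cytosines that are not methylated into uracil before the fragment ends are sequenced. The methylation level of a cytosine was the percentage of its reads left unconverted, and a promoter's level was the unweighted mean of its cytosines within 1 kb upstream of the gene start. The strands of a CpG were separate cytosines. After the authors' scaling was undone, the median coverage of a member cytosine was 38 to 81 reads per line, the lowest 10 reads, and the reads carried no molecular identifiers, so coverage bounds counting error only. Members had a median of 22 cytosines per promoter, against 13 over all genes, with 1 in the poorest promoter and 149 in Fgf18. CpG islands held 2703 of their 3067 cytosines (88.1%, against 76.7% over all genes), and none lay downstream of the gene start. In GENCODE M21, 2878 lay outside any gene, 90 in an exon and 99 in an intron of a gene that reached into the promoter.

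The stretches on which the results turned are given from the reference genome (GRCm38, the build mm10 of the files), forward strand, 5′ to 3′. First are the promoters of Gdf2 (chr14:33940873-33941033), Fgf6 (chr6:127015269-127015540) and Pdgfc (chr3:81035483-81035549), which were methylated in GS cells, with the measured CpGs in capitals. All lay outside genes.
Gdf2: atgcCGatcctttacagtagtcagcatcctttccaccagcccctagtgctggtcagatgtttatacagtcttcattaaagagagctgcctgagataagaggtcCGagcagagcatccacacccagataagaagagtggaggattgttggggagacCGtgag
Fgf6: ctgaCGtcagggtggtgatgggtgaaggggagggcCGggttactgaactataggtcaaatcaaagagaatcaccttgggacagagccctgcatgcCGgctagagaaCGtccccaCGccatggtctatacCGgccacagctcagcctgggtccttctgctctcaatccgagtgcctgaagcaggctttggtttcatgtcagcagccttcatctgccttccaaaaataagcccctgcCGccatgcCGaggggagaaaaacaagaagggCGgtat
Pdgfc: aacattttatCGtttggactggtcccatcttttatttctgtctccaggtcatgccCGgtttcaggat
Stretches of Gdnf (chr15:7810455-7810506) and Bmpr2 (chr1:59763213-59763279) follow, also outside genes and marked in the same way, because their methylation was seen in 1 line and on 1 strand.
Gdnf: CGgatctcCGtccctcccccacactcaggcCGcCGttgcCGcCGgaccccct
Bmpr2: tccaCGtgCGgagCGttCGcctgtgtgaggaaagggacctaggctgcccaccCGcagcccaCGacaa
Last are stretches of the Kit (chr5:75574823-75574893) and Wnt6 (chr1:74771880-74771891) promoters with CCGG in capitals. CCGG is its own reverse complement, so a match on either strand is a match on both.
Kit: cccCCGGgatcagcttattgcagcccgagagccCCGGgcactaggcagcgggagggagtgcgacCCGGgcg
Wnt6: gcccCCGGctct

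Member cytosines inside and outside the MspI sequence had different levels. Within CpG islands, the 2298 member cytosines outside CCGG averaged 1.87% and the highest reached 7.70%, whereas the 405 inside CCGG averaged 20.1%. Of those 405, 227 were at 10% or more and 183 at 20% or more. None of the 2298 others reached 10%. Line by line, the island mean ranged from 0.584% to 3.33% outside CCGG and from 17.7% to 21.8% inside it, so the ranges did not overlap. The same held over all genes, where 134243 island cytosines outside CCGG averaged 2.09% and 21899 inside it 22.4%. CCGG held 16.6% of member cytosines and 17.1% of all cytosines. Among RefSeq promoter windows (GRCm38.p6, 250 bases before to 50 after the start; 72 members matched), the sequence was present in 89.0% of the members' windows and in 52.8% of all windows. All windows were not limited to genes with measured cytosines, which members had by definition. RRBS measures fragments cut at CCGG, so this gap cannot be read as a trait of the members.

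**Figure D1:**
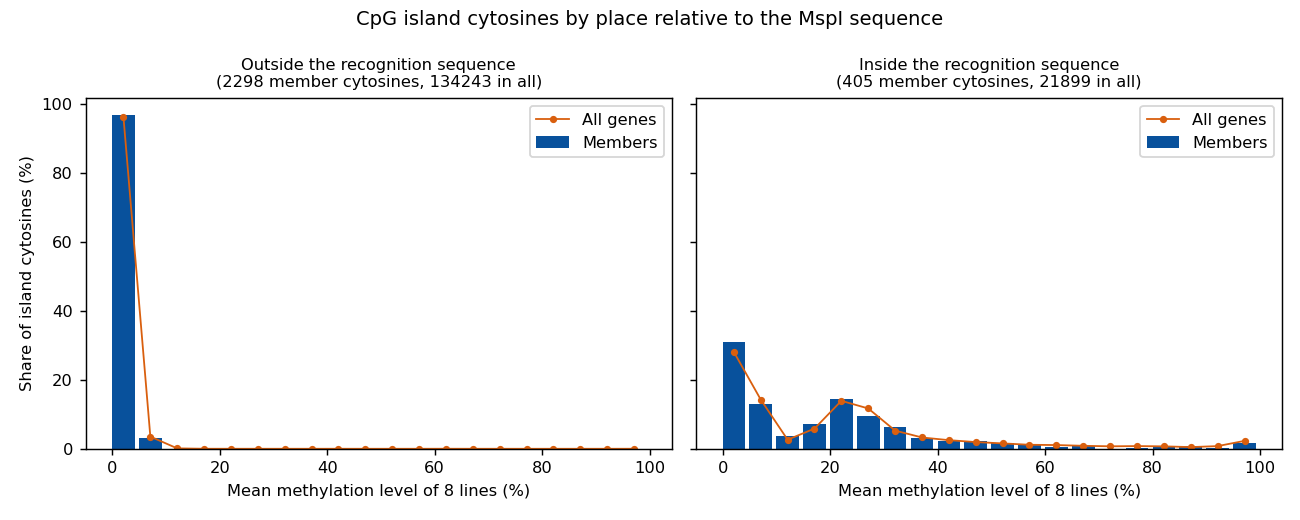
Share of CpG island cytosines (y axis, percent) by mean methylation level of the 8 lines (x axis, percent, in steps of 5), outside CCGG (left) and inside it (right). Blue bars are members and orange points all genes, and the 227 member cytosines at 10% or more all stand in the right panel.

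The strands of a CpG also parted at CCGG. Both strands were measured at 1191 member CpGs, and their mean levels differed by more than 20 percentage points at 78. All 78 were among the 162 CpGs in CCGG (48.1%), and none was among the 1029 others. Over all genes the shares were 50.9% and 0.0158%. Wnt6, a WNT ligand gene, showed the extreme: its 2 measured cytosines were the strands of 1 CCGG beside the gene start, the reverse strand was at 100% in 7 lines and at 94.7% in line 21, and the forward strand was at 0% to 6.67%. Of 26 member cytosines in CCGG at 80% or more, spread over 24 promoters, 23 had the other strand measured, and it was under 20% in 21. Jag2, Bmp7, Fgf11, Wnt11, Gdf6, Gdf9, Inhbb, Igf2bp2 and Smad3 held such cytosines. What makes the levels in CCGG and their strands differ was not tested, and promoter levels are therefore given with and without them.

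For Kit, the island next to the gene start showed how far the sequence reached into a promoter mean. Kit averaged 11.5% over all 20 cytosines, and lines 29, 37, 44 and 45 were at 8.43%, 7.66%, 12.03% and 15.7%, with lines 11, 17, 20 and 21 at 10.03%, 11.01%, 14.8% and 12.05%. Its 7 cytosines in CCGG averaged 28.2% and the other 13 averaged 2.44%. At the CCGG 88 bp upstream of the start, the reverse strand was at 18.3% to 96.6% in the 8 lines while the forward strand, its neighbor by 1 base, was at 0% to 14.5%. The line values of the groups overlapped at every one of these measures.

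Outside CCGG the growth factor promoters were nearly free of methylation. Of 88 members with such cytosines, 79 (89.8%) averaged under 5% over the 8 lines, against 85.6% of 8480 genes. Among promoters with 5 or more such cytosines the shares were 93.3% and 92.2%. The median promoter was at 1.95%, against 2.29% over the 8480 genes. In 80 members no cytosine outside CCGG had a mean of 10% or more, and such cytosines were 1.29% of those of members and 2.56% of all. Over all cytosines, 84 of 90 members were under 20%, 4 were between 20% and 80%, and Gdf2 and Gdf15 were above 80%. The share at 20% or more was 6.67% of members against 15.7% of all promoters. Outside CCGG, among promoters with 5 or more cytosines, it was 2.67% against 3.96%. With CCGG left out, the family medians ran from 1.72% (NOTCH) to 2.38% (FGF). With all cytosines, they ran from 3.27% (FGF) to 11.5% (KIT/CSF1), and that family consisted of Kit and Kitl.

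**Figure D2:**
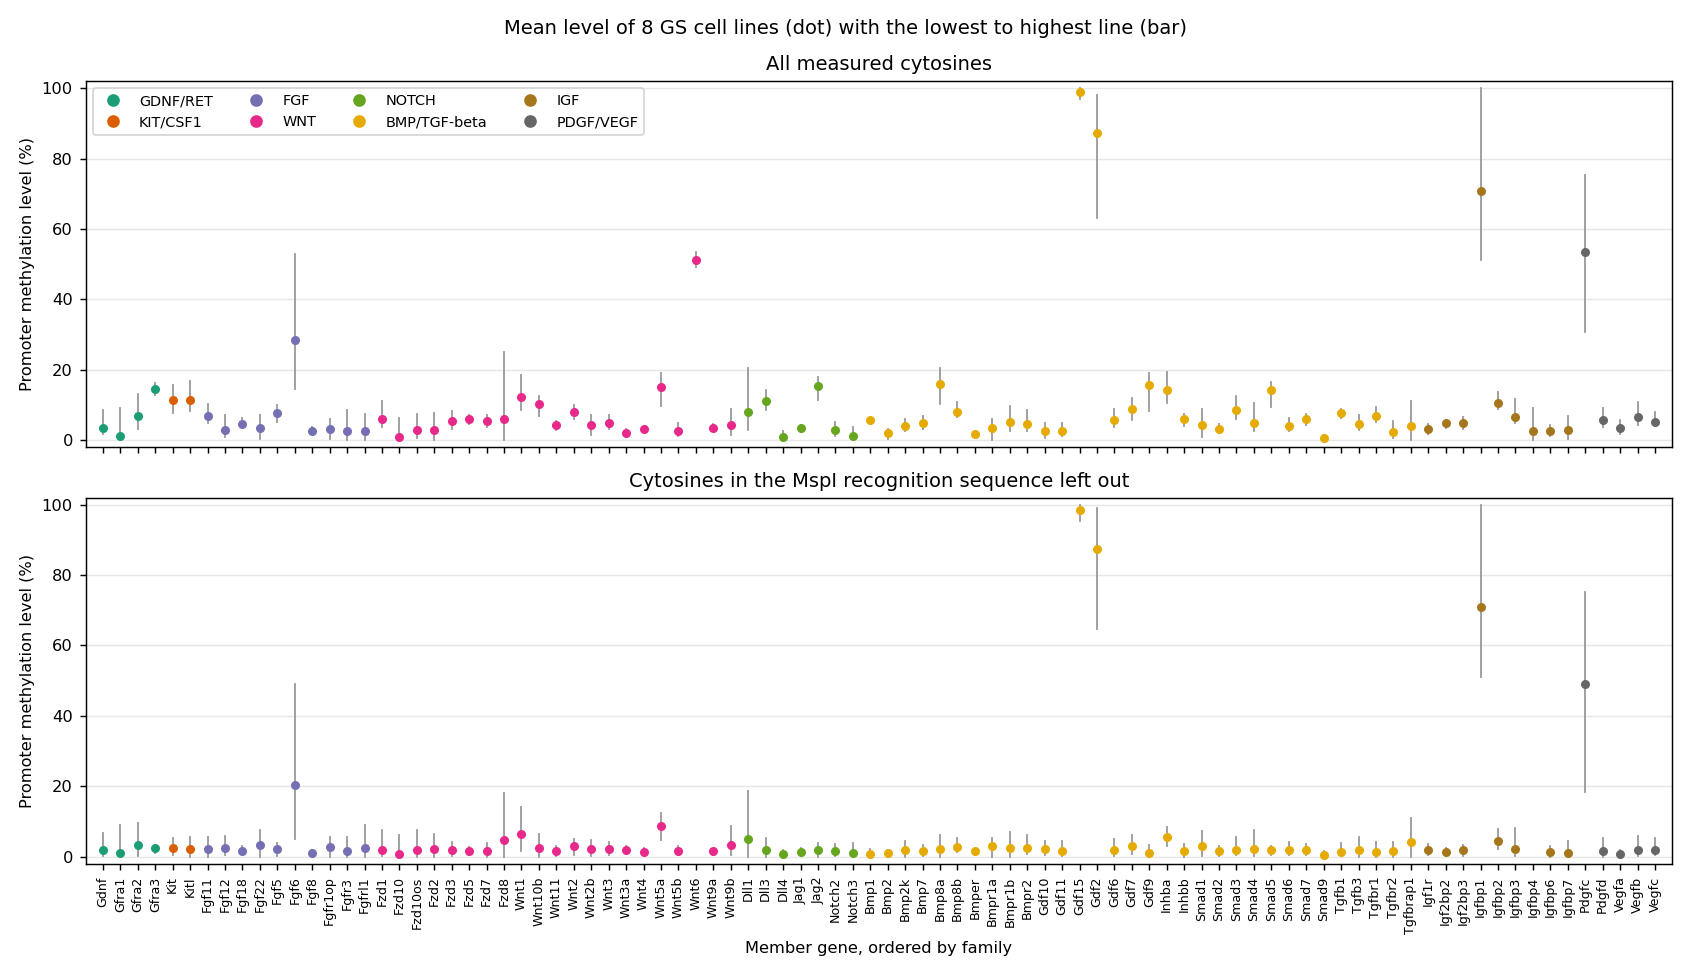
Methylation level of the 90 member promoters (y axis, percent), ordered by family along the x axis, with all cytosines (top) and with CCGG cytosines left out (bottom). Dots are means of 8 lines and bars run from the lowest to the highest line; in the lower panel Gdf15, Gdf2, Igfbp1, Pdgfc and Fgf6 stand above 20% and the remaining dots below 10%.

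Ligands of the niche were low in every line. Gdnf, with 74 cytosines (66 outside CCGG), averaged 1.90% outside CCGG, from 0.303% in line 37 to 6.78% in line 44. Kitl, the ligand of KIT, averaged 2.15%, from 0% to 5.65%, although its 5 cytosines in CCGG brought the whole promoter to 11.5%. Fgf8, an FGF ligand gene, averaged 1.1%, from 0.339% to 1.99%. Jag1 (131 cytosines), a NOTCH ligand, averaged 1.49%, Tgfb1 1.38%, and Vegfa, the vascular growth factor, 0.669%. The groups overlapped in each of these promoters. Among WNT ligand genes with many cytosines, Wnt4 averaged 1.38% outside CCGG, Wnt3 (97 cytosines) 2.24%, Wnt9a (89) 1.5%, Wnt2b 2.11% and Wnt3a 1.83%, and Wnt9b, with 15 cytosines, was the most variable of them, from 0.366% to 8.83%. Fgf5 and Bmp2, ligand genes of the early embryo, averaged 2.12% and 0.979%, and Bmp8b, a BMP gene expressed in male germ cells, 2.63%. Bmp8b, Dll3 and Wnt10b stood at 8.09%, 11.03% and 10.4% with all cytosines, and their cytosines in CCGG averaged 28.1%, 56.4% and 26.1%. Outside CCGG, Dll3 and Dll4, NOTCH ligand genes, averaged 1.96% and 0.817%, Wnt10b 2.52%, Tgfb3 1.93%, and the vascular growth factor genes Vegfb and Vegfc 1.93% and 1.84%.

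Receptors were as low. Gfra1, the GDNF coreceptor, was measured at a single cytosine 880 bp upstream of its start, where 7 lines were at 0% and line 45 at 9.09%. At 12 to 72 reads, a count of 0 allowed a level of at most 4.17% to 25.0% (3 reads), so a low level at Gfra1 was not resolved. Gfra2, the neurturin coreceptor, averaged 3.44% outside CCGG, and Gfra3, the artemin coreceptor, 2.59% outside CCGG and 34.7% inside it. Igf1r (114 cytosines), the receptor for insulin-like growth factors, averaged 2.06%, Bmpr1a 3.18%, Tgfbr1 1.49%, Fgfr3 1.67% and Fzd1 2.01%. The NOTCH receptor genes Notch2 and Notch3 averaged 1.72% and 1.15%, the TGF-beta receptor gene Tgfbr2 1.71%, and the Frizzled genes Fzd5 and Fzd7 1.5% and 1.75%. Fzd8 was measured at 2 cytosines with 12 to 31 reads, and its cytosine outside CCGG was at 18.2% in line 37, 14.3% in line 20, 6.45% in line 21 and 0% in the other 5.

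Signal transducers and binding proteins gave the same picture. The 8 SMAD genes, which carry BMP, activin and TGF-beta signals to the nucleus, averaged from 0.494% (Smad9) to 3.11% (Smad1) outside CCGG, with Smad2 at 1.67%, Smad3 at 1.94%, Smad4 at 2.24%, Smad5 at 1.81% and Smad7, with 122 cytosines, at 1.81%. Among IGF binding protein genes, Igfbp7 was at 0.964%, Igfbp2 at 4.48% and Igfbp3 at 2.30%, where line 44 reached 8.09%. Igfbp1 was the exception, with a single cytosine 373 bp upstream of its start.

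Methylation at 10% or more outside CCGG was confined to 33 member cytosines in 8 promoters, or 1.29% of 2558 (2.56% over all genes). None was in an island. The promoters were those of Gdf15, Gdf2, Igfbp1, Pdgfc, Fgf6, Wnt5a, Wnt1 and Gdf7, the last with 1 such cytosine. Gdf15, a stress-induced member of the TGF-beta family, was the highest: its 2 cytosines outside CCGG averaged 98.5%, and all lines were between 95.5% and 100%, at 10 to 28 reads. Gdf2 encodes BMP9, a liver ligand that acts on endothelium. Its 6 cytosines outside CCGG, between 162 and 10 bp upstream of the start, averaged 87.3%. Lines 29, 37, 44 and 45 were at 95%, 64.7%, 99.1% and 82.4%, and lines 11, 17, 20 and 21 at 96.5%, 82.5%, 87.9% and 90.5%. Line 37 was the lowest, and the other 7 lines overlapped. In the stretch printed above, the strands gave like values at all 3 CpGs (means of 86.9% and 92.3% at the CpG farthest from the start).

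Fgf6, an FGF ligand gene known for its role in muscle, had the widest range between lines among promoters with 5 or more cytosines. Its 9 cytosines outside CCGG averaged 38.0%, 10.9%, 5.11% and 8.73% in lines 29, 37, 44 and 45, and 7.61%, 12.3%, 32.0% and 49.2% in lines 11, 17, 20 and 21. Lines 29, 20 and 21 were high and the other 5 were low, so each group held both kinds, and so did each label set. At the CpG 211 bp upstream of the start the strands followed each other, with 53.6% and 41.9% in line 29 and 0% and 3.92% in line 44. The 3 cytosines nearest the start were read only 10 times in line 21, where they stood at 60% to 70%. Igfbp1 was between 51.1% and 100% in the 8 lines, at 14 to 45 reads.

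Partial methylation marked a few more ligands. Wnt5a, a ligand of the noncanonical WNT pathway, averaged 8.67% over 13 cytosines outside CCGG (4.68% in line 11 to 12.5% in line 45), with 6 of them at 10% or more in the shore 547 to 799 bp upstream, while the 3 cytosines within 23 bp of the start were at 1.14% to 2.34%. Wnt1, the canonical WNT ligand gene, averaged 6.60% outside CCGG, from 1.61% in line 29 to 14.04% in line 45. Its highest cytosine, 190 bp upstream, was at 54.8% in line 45 and at 0% to 27.3% in the others. Inhba, which encodes the activin A subunit, averaged 5.54% (2.98% to 8.33%).

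**Figure D3:**
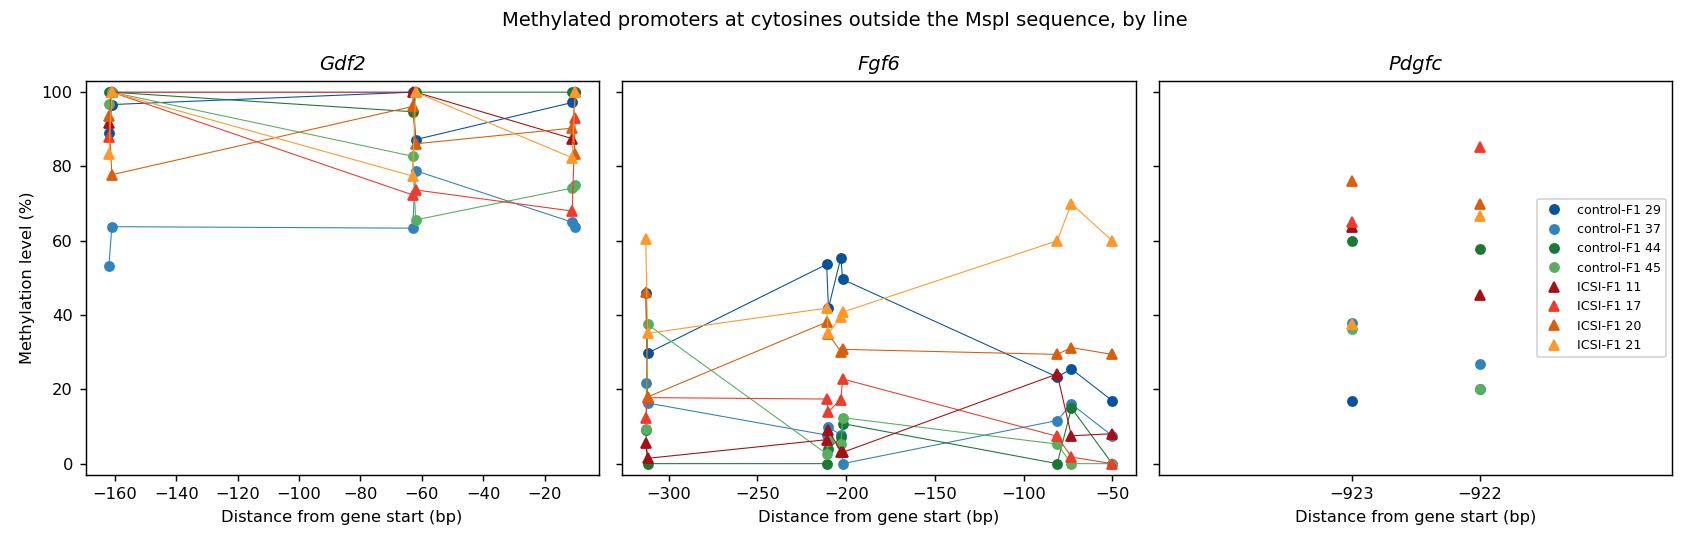
Methylation level (y axis, percent) of cytosines outside CCGG by distance from the gene start (x axis, bp) in Gdf2, Fgf6 and Pdgfc; circles are control-F1 lines, triangles ICSI-F1 lines, and colors mark single lines. Gdf2 is high in every line with line 37 lowest, Fgf6 is high in lines 29, 20 and 21, and Pdgfc spreads from 16.9% to 85.2%.

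The comparison of ICSI-F1 with control-F1 GS cells asked whether conception by ICSI left a methylation difference in the germline stem cells of the offspring. Over all member cytosines the mean level was 4.66%, 4.64%, 7.15% and 6.78% in lines 29, 37, 44 and 45 and 4.29%, 5.00%, 6.80% and 6.28% in lines 11, 17, 20 and 21. The group means were 5.81% ± 1.35 (SD, n = 4) for control-F1 and 5.59% ± 1.15 (SD, n = 4) for ICSI-F1, and these differed by −0.218 percentage points, less than either SD. Over all genes it was −0.147 percentage points. The members' difference had no stable sign: it was 0.231, 0.107 and 0.217 without line 44, 45 or 11, as low as −0.620 without line 20, and 0.00196 as a mean of promoter means. Within label set 1 the members differed by −0.00578 and within label set 2 by −0.430 percentage points. With CCGG left out the means were 2.61% ± 1.21 and 2.24% ± 1.03, and the difference −0.370 percentage points.

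No member promoter passed the test. Of 79 members with 5 or more cytosines, 34 were higher and 45 lower in ICSI-F1 lines, with a median difference of −0.165 percentage points against −0.186 over 7278 genes. limma, fitted over all 7278 promoters on the log2 ratio of methylated to unmethylated share with Benjamini-Hochberg adjustment, called 0 members and 0 genes (percent called 0). At an unadjusted p under 0.05 it gave 0 members, against 2.4% of all promoters. In none of these 79 did the groups separate completely over all cytosines, against 1.17% of all promoters. Among promoters with fewer cytosines, Fgfrl1, a decoy FGF receptor gene, separated at its 2 cytosines outside CCGG. These were at 1.69% to 8.90% in control-F1 and 0% to 1.24% in ICSI-F1 lines (exact permutation p = 0.0286 before adjustment, the smallest possible). Over all 3 of its cytosines the groups overlapped, with line 37 at 1.13% and line 17 at 3.13% (exact permutation p = 0.143). Fgfrl1 was noticed after the values were seen. Outside CCGG, 1.22% of 6489 promoters with 5 or more cytosines reached the smallest possible p of the exact permutation test. A difference above 5 percentage points was seen in 1 of the 79 members and in 3.70% of all promoters.

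Among those 79, the widest differences were in Fgf6 and Gdf2, and both changed sign without 1 line. For Fgf6 the control-F1 mean was 25.1% ± 13.7 and the ICSI-F1 mean 31.7% ± 17.5 (SD, n = 4 each). They differed by 6.65 percentage points, with p = 0.629 by an exact permutation test (two-sided, 70 arrangements, smallest possible p 0.0286). The difference was −0.401 percentage points without line 21, −13.8 within label set 1 and 27.1 within label set 2. Gdf2 averaged 85.0% ± 15.7 and 89.7% ± 5.65 (difference 4.75 percentage points, exact permutation p = 0.743), and without line 37 the difference was −2.57. Inhba was next, with 12.8% ± 2.18 for control-F1 against 15.8% ± 3.20 for ICSI-F1, a difference of 3.08 percentage points that stayed between 1.86 and 4.42 with any 1 line left out (exact permutation p = 0.171). Bmpr1b, a BMP receptor, differed by 2.02 (0.782 without line 20), Fgf12 by 1.59 (0.441 without line 20) and Smad5 by 1.57 percentage points (0.169 without line 37). Gdnf differed by −1.84 (4.51% ± 3.03 against 2.68% ± 0.893, exact permutation p = 0.371) and Bmpr2 by −1.57 percentage points (5.48% ± 2.30 against 3.91% ± 0.935, p = 0.229 in the same exact test), and without line 44 these were −0.511 and −0.531. The groups overlapped in each of them, and limma's adjusted p was 1.00 for all 8. These differences are over all cytosines. With CCGG left out, Smad5 differed by −0.0584, Inhba by 2.09 and Fgf6 by 9.58 percentage points, and the others kept their sign.

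**Figure D4:**
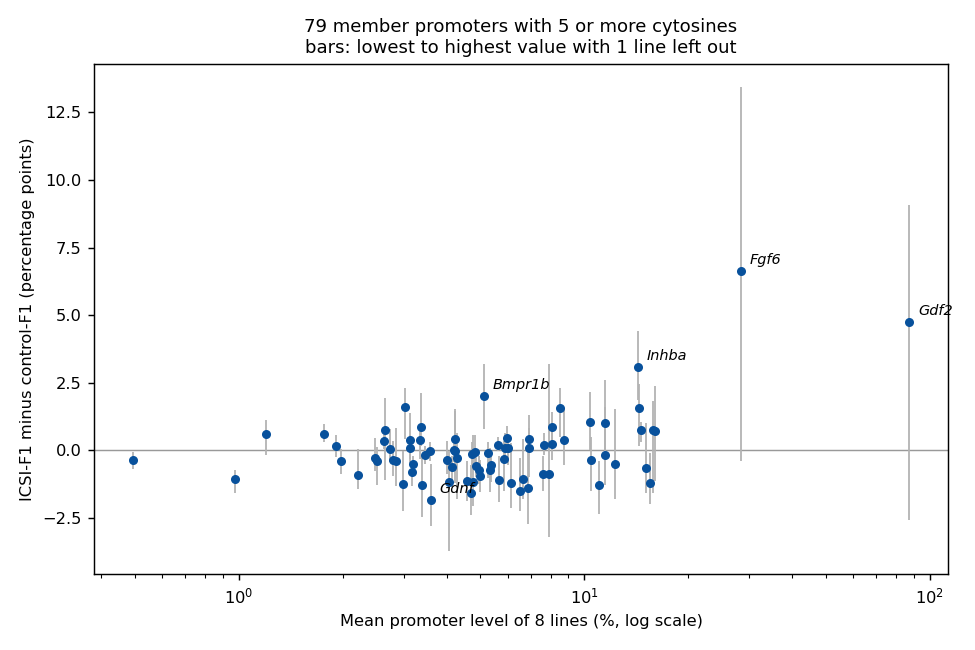
Difference of ICSI-F1 minus control-F1 lines in percentage points (y axis) against the mean level of 8 lines (x axis, percent, log scale) for the 79 member promoters with 5 or more cytosines; bars span the values with any 1 line left out. Differences stay within 3.08 points of 0 except in Fgf6 and Gdf2, whose bars cross 0. All cytosines are included, also those in CCGG.

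By a size rule modeled on the study's methods (mean difference above 20 percentage points with every ICSI-F1 line beyond the control-F1 mean), 3 member cytosines were higher in ICSI-F1 GS cells, or 0.0978% of 3067, against 0.274% of all cytosines. None was lower, against 0.0506%. The 3 were in Pdgfc, Smad5 and Fzd3, and 2 of them were among the 509 cytosines in CCGG (0.393%, against 0.822% of all cytosines in CCGG) and 1 among the 2558 others (0.0391%, against 0.161%). The methods leave out cytosines at which a line goes the other way without saying how that was judged, so the condition on single lines is a reading made here. The rule is not a test, and the size of a difference between groups of 4 lines also depends on their spread. The exact permutation p-values given below for these 3 cytosines and for the Pdgfc mean are unadjusted. The cytosines were picked by the same difference, so these p-values lend it no support.

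Pdgfc encodes PDGF-C, a ligand of the PDGF receptors. Its reverse-strand cytosine 922 bp upstream of the start was at 20%, 26.8%, 57.7% and 20% in lines 29, 37, 44 and 45 and at 45.5%, 85.2%, 70% and 66.7% in lines 11, 17, 20 and 21, at 14 to 23 reads. Line 44 was above line 11, so the groups overlapped, with means of 31.1% ± 18.0 and 66.8% ± 16.4 (difference 35.7 percentage points, exact permutation p = 0.0571). The difference was 41.9 within label set 1 and 29.5 within label set 2, and it lay between 29.6 and 44.6 with any 1 line left out. The forward strand of the same CpG, at 24 to 58 reads, gave 16.9%, 38.0%, 60% and 36.4% in control-F1 and 63.8%, 64.9%, 76.2% and 37.5% in ICSI-F1 lines. It differed by 22.8 percentage points, and line 21, at 37.5%, fell below the control-F1 mean of 37.8%. The third Pdgfc cytosine, in the CCGG 877 bp upstream, differed by 11.7 percentage points. The mean of the 3 cytosines was 41.6% ± 15.7 for control-F1 against 65.0% ± 12.5 for ICSI-F1 (difference 23.4, exact permutation p = 0.0857), and it had too few cytosines for the limma fit.

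The Smad5 and Fzd3 cytosines were both in CCGG. Smad5, a transducer of BMP signals, had a cytosine 364 bp upstream at 74.1%, 36.2%, 91.2% and 80.6% in control-F1 and 88.9%, 96.4%, 93.3% and 94.4% in ICSI-F1 lines (22.7 percentage points higher on average, exact permutation p = 0.0571), while the other strand averaged 1.83%. Without line 37 the difference was 11.3. Fzd3, a WNT receptor, had one 83 bp upstream at 45.6%, 16.8%, 51.2% and 67.4% in control-F1 and 48.2%, 49.2%, 88.5% and 80.4% in ICSI-F1 lines (21.3 percentage points higher on average, exact permutation p = 0.200), and 11.8 without line 37. Line 37 was lowest in both, and it had the lowest coverage of the 8 lines. The mean of all 37 Fzd3 cytosines went the other way, with a difference of −0.726 percentage points (0.100 without line 45). With CCGG left out it was −1.52.

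A logistic model of methylated and unmethylated reads at each cytosine, with dispersion moderated across 196818 cytosines (limma's squeezeVar), called 0 of 2906 member cytosines at a false discovery rate of 0.05, against 0.00457% of all. At an unadjusted p under 0.05 there were 137 member cytosines (4.71%), close to 4.91% of all cytosines, with 23 higher and 114 lower in ICSI-F1 lines (2318 higher and 7340 lower over all genes). Without moderation the model called 0 and gave 171 at an unadjusted p under 0.05 (5.88%, against 5.52% of all). The moderated count of 137 was 298 with the label set as a covariate (10.3%, against 9.79% of all) and was 82 without line 44 (2.89%, against 3.25%) and 77 without line 45 (2.74%, against 3.43%). The lowest adjusted p among the 3 cytosines above was 0.827, for Smad5. Cytosines at which all ICSI-F1 lines were above all control-F1 lines numbered 12 (0.391%, against 0.427% over all genes), and 13 had all ICSI-F1 lines below (0.424%, against 0.679%).

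A further 32 member cytosines outside CCGG, in 18 promoters, had 1 line at least 20 percentage points above every other line (1.25% of 2558, against 1.46% over all genes). Line 44 accounted for 16, line 45 for 6, lines 20 and 21 for 4 each, and lines 29 and 37 for 1 each. Thus 30 of 32 were in lines of label set 2, as were 87.1% of such cytosines over all genes. Both strands of the CpG were measured at 17 of them. In CCGG there were 16 such member cytosines (3.14% of 509, against 1.92%), of which 8 were in line 37 and 4 in line 11.

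Runs of 3 or more such cytosines within 60 bp stood in 4 of these promoters. The Fgf6 run was that of line 21 described above, and the other 3 were in control-F1 line 44. In Gdnf, the 4 reverse-strand cytosines outside CCGG from 382 to 351 bp upstream stood at 33.1% to 40.2% in line 44, over 105 to 109 reads, and at 0% to 8.33% in the other lines. The forward-strand cytosines of the same CpGs were at 2.90% to 9.86% in line 44, over 62 to 64 reads. In Bmpr2, the BMP type II receptor gene, 3 forward-strand cytosines from 183 to 126 bp upstream were at 54.2% to 56.5% in line 44 over 21 to 22 reads and at 0% in all others, and the 6 reverse-strand cytosines there were at 0% in line 44 over 37 to 40 reads. In Dll1, a NOTCH ligand gene whose promoter overlaps an exon of A930024N18Rik, 4 forward-strand cytosines from 157 to 119 bp upstream were at 28.9% to 40.9% in line 44 over 20 to 34 reads and at 0% to 7.14% elsewhere, and the other strand was not measured. The gap between strands at Gdnf and Bmpr2 was larger than the counting error at these depths, as the exact 95% binomial interval (Clopper-Pearson) at the highest cytosine ran from 30.6% to 50.02% in Gdnf and from 34.0% to 78.2% in Bmpr2. Whether the reads came from few DNA molecules was not tested.

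**Figure D5:**
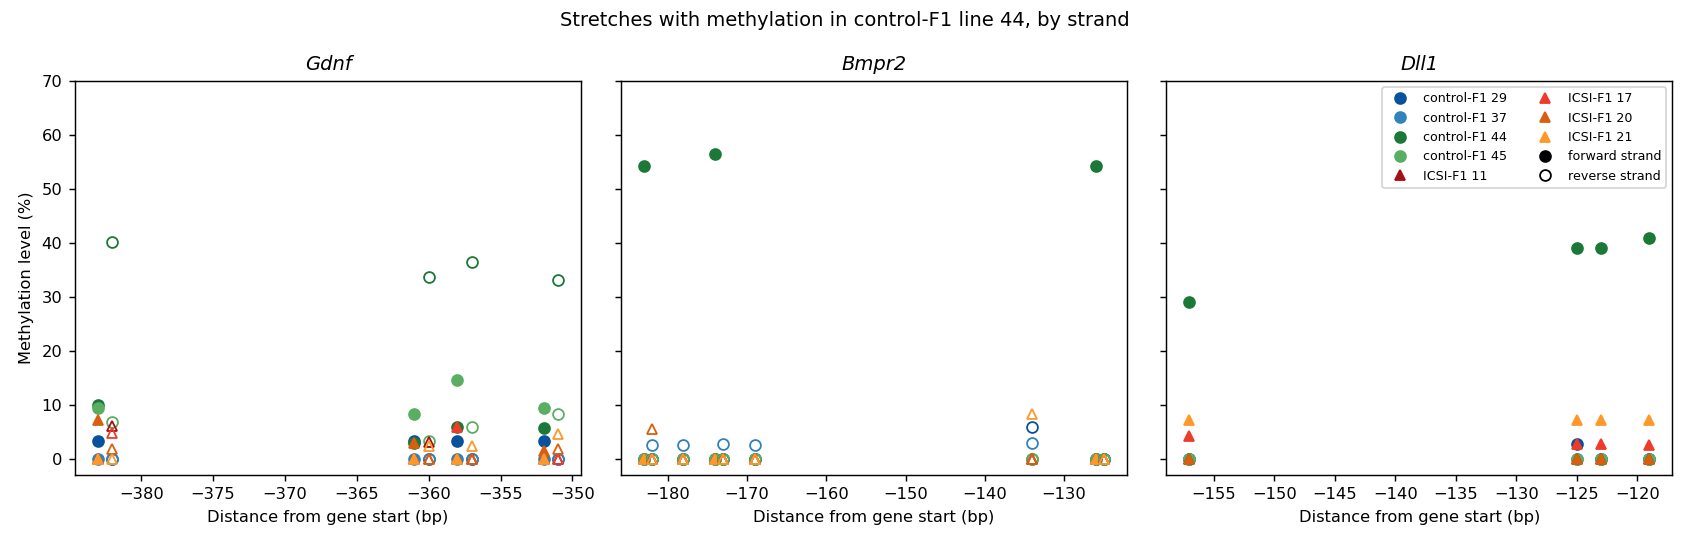
Methylation level (y axis, percent) of cytosines outside CCGG by distance from the gene start (x axis, bp) in stretches of Gdnf, Bmpr2 and Dll1; filled symbols are forward-strand and open symbols reverse-strand cytosines, circles control-F1 and triangles ICSI-F1 lines. Line 44 stands at 28.9% or more on 1 strand of each stretch, and its other strand in Gdnf and Bmpr2 is below 10%.

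The label sets differed more than the groups did. Member cytosines averaged 4.29% to 5.00% in the lines of set 1 and 6.28% to 7.15% in those of set 2, without overlap, a difference of 2.11 percentage points (2.27 over all genes). Outside CCGG the set means were 1.49% and 3.36%. In 34 of 75 member promoters with 5 or more cytosines outside CCGG (45.3%, against 28.5% over all genes) every line of set 2 was above every line of set 1, and in none was the order the opposite. Unscaled median coverage at member cytosines was 38 to 62 reads in set 1 and 68 to 81 reads in set 2. The study's supplement also gives every line of set 2 more sequenced reads than any line of set 1. What else the sets share beyond their description in the labels cannot be told from the sources used here. The widest label-set differences among promoters with 5 or more cytosines were in Fgf6 (7.86 percentage points), Dll1 (7.60), Bmp8a (6.93), Gdf2 (5.83) and Tgfbrap1 (5.40). Lines of the sets overlapped in Fgf6, Dll1, Gdf2 and Tgfbrap1. In Bmp8a they did not, but outside CCGG its difference was 2.04 percentage points and the sets overlapped.

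Other genes of the same pathways behaved as the members did. Of 38 other WNT pathway genes listed, 23 had cytosines, with a median of 1.98% outside CCGG, and Lrp5, a WNT coreceptor, was highest at 8.90%. The 12 other BMP and TGF-beta pathway genes with such cytosines were at 4.03% or less, and the 16 other NOTCH pathway genes at 3.57% or less. Of 30 other receptor kinase pathway genes, 27 were under 5%, and Lif, a cytokine that supports stem cells, was at 93.6% over 2 cytosines. limma called none of the 72 tested promoters in these lists, and none had an unadjusted p under 0.05. The size rule was passed by 2 of 672 cytosines in the WNT list (in Lrp5 and Wif1) and 1 of 527 in the BMP list (Acvrl1). It was passed by 0 of 574 in the NOTCH list and 1 of 1114 in the receptor kinase list (Spry2). All of these were higher in ICSI-F1 lines, and over all cytosines the rule gave 0.274% higher and 0.0506% lower.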

How the data were processed

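RRBS libraries of 8 GS cell lines, made with a Zymo-Seq RRBS kit, were analysed. Per the labels, the authors used Trim Galore 0.5.0 for trimming, Bismark 0.20.0 for alignment (mm10) and counted cytosines with methylKit 1.16.0 (the study's methods give an earlier methylKit version). They kept cytosines with at least 10 reads, scaled coverage between lines, joined cytosines covered in every line and assigned those up to 1 kb upstream of a gene, by Ensembl 87. The deposited values are scaled numbers of methylated and unmethylated reads, rounded by the authors, and were treated as scores on a read scale and not as raw counts. The design had assumed reads. Scaling factors of 1 to 1.875 were read from the values, and 100% of values fell on the resulting grid, so lines with fewer reads are given more weight by the logistic model than their depth supports. Unscaled coverage summed over member cytosines was 126705 to 250104 reads per line.

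The level of a cytosine was 100 times methylated over methylated plus unmethylated reads. Promoter means of 5 or more cytosines were tested with limma 3.58.1 (R 4.3.3, trended eBayes) on log2((level + 1)/(100 − level + 1)), and single promoters with an exact two-sided permutation test over 70 arrangements. Cytosines were tested with a quasi-binomial logistic model, with squeezeVar moderation and 6 residual degrees of freedom, and described by the 20-point rule. Adjustment was over all genes or cytosines. The limma fit and the logistic model were first checked on simulated data, and the permutation and Dixon tests were not. CCGG was read from GRCm38 with pysam 0.24.0, and gene overlaps from GENCODE M21.

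Members and gene lists were chosen with earlier results of these data known. Genes were named if they were niche genes with cytosines (19 of 31), among the 12 highest, the 8 widest group differences or the 5 widest label-set differences, the highest or lowest of a family, past the 20-point rule or a false discovery rate of 0.05, mixed (cytosines at 80% or more and under 20%), or among the 5 with most cytosines; 53 members met these. Leaving out CCGG was chosen after seeing the data. Alternatives were other offsets, minimum numbers of cytosines and reads, weights, scales, thresholds, the strands merged, the label set as a covariate or alone, and each line left out.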

Additional observations from a re-analysis of the deposited data

Results flagged for a closer look

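Within groups of 4 lines, 110 values were examined (53 named promoters and the mean over all member cytosines with and without CCGG, in each group), and in 8 of them 1 line stood apart from the other 3 by Dixon's test. Chance alone marks about 1 in 20 groups. That rate does not hold where 3 lines are all at 0%, because any other value in the remaining line is then marked. Gfra1 and Smad9 below were marked in this way. Nor does the rate hold for promoters named for wide differences or extreme levels in these same values, such as Dll1, Fgf6 and Tgfbrap1.

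In control-F1, the Dll1 promoter was at 20.4% in line 44 and between 3.17% and 5.46% in the other 3 lines. The Fgf6 promoter was at 45.5% in line 29 and between 16.5% and 21.1% in the others. Gdf9, the oocyte growth factor gene, was at 8.41% in line 37 and between 17.2% and 18.6% in the others, and its 2 cytosines in CCGG averaged 44.99% over the 8 lines while the other 4 averaged 1.17%. Igf2bp2 was at 3.84% in line 29 and between 5.43% and 5.72% in the others. The single Gfra1 cytosine was at 9.09% in line 45 and at 0% in the others.

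In ICSI-F1, Fgfr3 was at 8.55% in line 20 and between 0.870% and 1.46% in the others. Tgfbrap1 was at 11.1% in line 21 and between 0% and 1.45% in the others, and Smad9 was at 1.25% in line 21 and at 0% in the others. Lines 29 and 21 were each marked in 2 promoters, lines 37, 44, 45 and 20 in 1, and lines 11 and 17 in none.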

How the results depend on the processing

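limma called 0 member promoters, named or not, and the logistic model 0 member cytosines under every alternative run. Across all genes these fits called 0 to 1 promoters and 0 to 240 cytosines. Cytosines higher in ICSI-F1 by the 20-point rule numbered 13 at a threshold of 10 points (0.424% of members, against 0.841% of all cytosines), 1 at 30 points (0.0326%, against 0.0692%), 5 with no condition on single lines (0.163%, against 0.340%) and 0 with every ICSI-F1 line above every control-F1 line (against 0.0673%). They numbered 17 in either label set alone (0.554%, against 0.871% in set 1 and 0.420% in set 2), 1 with 30 reads (against 0.199% of all), 1 with strands merged (against 0.251%) and 1 (Pdgfc) without CCGG (against 0.161%). With a line left out they numbered 1 to 9, the lowest without line 37 (against 0.200%) and the highest without line 44 (against 0.545%). Those lower numbered 14 at 10 points (0.456%, against 0.519%), 10 in set 1 (0.326%, against 0.211%), 5 in set 2 (0.163%, against 0.264%) and 0 to 1 with a line left out. Of 90 member promoters, 6 averaged 20% or more (6.67%, against 15.7% of all), and with at least 30 reads 2 did. Pdgfc had no cytosine left at that minimum, so the lower count also reflects lost promoters. The share over all genes was not counted there. The highest family median was 11.5%, and 2.38% without CCGG. The difference over all member cytosines, −0.218 points, was 0.231, 0.107 and 0.217 without line 44, 45 or 11. Promoter differences changed sign in Fgf6 (−13.8 in set 1, −0.401 without line 21, otherwise up to 13.4 with a line left out), Gdf2 (−1.85 in set 2, −2.57 without line 37 and 9.07 without line 44), Fzd3 (−0.726, but 0.100 without line 45 and −1.54 without line 20) and Smad5 (−0.0584 without CCGG, −0.210 in set 2). The cause was not tested. No paired analysis was possible because the lines of the groups share no numbers.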
